A study of Mus musculus with 16 samples.

Results

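The nuclear genes of the oxidative phosphorylation machinery were examined in bulk RNA libraries of MPP3 and MPP4 cells, a pair of multipotent progenitor populations of the mouse bone marrow. Members were chosen by symbol from the normalised count table: symbols beginning with Nduf, Uqcr, Atp5, Cox4, Cox5, Cox6, Cox7 or Cox8, together with Sdha, Sdhb, Sdhc, Sdhd, Cyc1 and Cycs, without pseudogene symbols ending in -ps. This gave 89 of the 11831 genes in that table. Of the members, 36 encode subunits of complex I (NADH dehydrogenase; 7 core and 29 accessory), 4 of complex II (succinate dehydrogenase), 9 of complex III (the cytochrome bc1 complex), 15 of complex IV (cytochrome c oxidase) and 15 of complex V (ATP synthase), and 1, Cycs, encodes cytochrome c. Another 7 are Ndufaf assembly factors of complex I. The remaining 2, Atp5s and Atp5sl, carry an Atp5 symbol but encode no subunit of the synthase. The members lie on 19 chromosomes.

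Oxidative phosphorylation takes place in the inner mitochondrial membrane. Complexes I and II pass electrons from NADH and succinate to ubiquinone, complex III passes them to cytochrome c, and complex IV passes them to oxygen. The protons pumped on the way drive ATP synthesis by complex V. Each complex except complex II combines nuclear subunits with a few made in the mitochondrion itself, and several subunits of complexes IV and V come in alternative isoforms from separate genes. Haematopoietic stem cells are known for relying largely on glycolysis, and the step to cycling progenitors is accompanied by greater use of mitochondrial respiration.

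MPP3 cells (a myeloid-biased progenitor, sorted as LSK CD150- CD48+) and MPP4 cells (a lymphoid-primed progenitor, sorted with the same markers plus Flt3) came from C57BL/6 mice with normal or targeted Ebf1, the gene of a B-lymphoid transcription factor. Each of 8 mice gave 1 library of each population, for 16 libraries and 4 per combination of population and genotype. Per the labels, WT mice were Ebf1fl/fl Tie2Cre+/+ and KO mice Ebf1fl/fl Tie2Cre +/cre, so that both carried floxed alleles. The design text of the series instead calls the controls Ebf1-wt Tie2Cre, which would give the transgene to both groups. Tie2Cre is driven by an endothelial promoter that is also active in the haematopoietic lineage, and the labels name no treatment. Both genotypes comprised 2 females (WT mice 1 and 2, KO mice 3 and 4) and 2 males. WT mice 1 to 4 were aged 12, 11, 12 and 11 weeks, and KO mice 1 to 4 were aged 10, 9, 11 and 11 weeks.

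Libraries held 24823708 to 48703193 counts. Ebf1 itself did not follow the label: MPP3 libraries held 5 to 91 counts in WT and 6 to 84 in KO, and MPP4 libraries 98 to 263 in WT and 488 to 928 in KO, and counts per gene also take reads from any exon left in place. WT and KO throughout are therefore the labels of the libraries, and every KO over WT direction rests on those labels. Of 6 LSK progenitor markers (Kit, Ly6a, Cd34, Cd48, Flt3 and Slamf1), all had more than 3 counts in every library. Slamf1, the gene of CD150, for which both populations were sorted negative, held only 7 to 116 counts. The proliferation markers were lower in MPP3, with 5 of 6 called in each genotype: their summed level was 1173 to 1326 normalised CPM (counts scaled to the library's size) in WT MPP3 and 1502 to 1771 CPM in WT MPP4. The B-lineage gene Cd79a had means of 2.68 CPM in WT and 0.329 in KO MPP3 and of 3.89 and 0.281 CPM in MPP4, a lower level in the libraries labelled KO that was not called (FDR = 0.254 and 0.160). Of the plasma cell markers, Igkc and Jchain had means of 223 and 70.0 CPM in WT MPP3 and 15.3 and 5.25 CPM in KO MPP3. The KO MPP3 means rest almost wholly on each gene's highest library, at 61.2 and 20.6 CPM, with medians of 0 and 0.17 CPM. In MPP4 Igkc had means of 5.68 CPM in WT and 0.0556 in KO, and the sum of the 4 markers, 53.8 to 146 CPM, was nearly all Sdc1. The sum was 107 to 525 CPM in WT MPP3 and 5.43 to 93.0 CPM in KO MPP3.

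Sequences upstream of the genes are given first for 4 members, because Cox6b2 was called between the populations in both genotypes while its isoform Cox6b1 was not, and because Cox6a1 and Cycs hold letters shared by many members. RefSeq windows of build GRCm38.p6, 250 bases before to 50 after each start, were matched to 71 members (76 windows). The NRF1 core GCATGCGC was found on either strand in 17.1% of the member windows, against 2.71% of all 32851 windows. The ETS letters CCGGAAG were found in 22.4% against 8.86%, the YY1 letters AAGATGGCG in 9.21% against 1.4%, CCAAT in 42.1% against 37.4%, and TATAAA in 7.89% against 13.6%. The NRF1, ETS and YY1 motifs name factors long described at respiratory gene promoters, and a match to any of the motifs is only a match of letters. The 200 bases upstream of the RefSeq or the GENCODE start, whichever lies further upstream, are shown 5′ to 3′ on the gene's own strand, with matches to any of these motifs, on either strand, in capitals.
Cox6b1, chr7:30626152-30626351, minus strand: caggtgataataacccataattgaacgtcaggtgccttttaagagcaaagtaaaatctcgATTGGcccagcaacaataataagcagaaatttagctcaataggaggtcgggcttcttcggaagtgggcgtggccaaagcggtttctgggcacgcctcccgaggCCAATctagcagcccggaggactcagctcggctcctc
Cox6b2, chr7:4753095-4753294, minus strand: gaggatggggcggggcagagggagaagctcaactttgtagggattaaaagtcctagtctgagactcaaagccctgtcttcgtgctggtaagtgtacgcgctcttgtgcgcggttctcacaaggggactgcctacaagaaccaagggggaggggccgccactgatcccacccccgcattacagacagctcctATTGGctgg
Cox6a1, chr5:115348982-115349181, minus strand: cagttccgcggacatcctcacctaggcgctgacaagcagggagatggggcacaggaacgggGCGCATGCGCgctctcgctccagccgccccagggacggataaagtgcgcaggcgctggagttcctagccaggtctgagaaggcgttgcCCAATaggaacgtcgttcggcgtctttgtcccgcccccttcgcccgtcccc
Cycs, chr6:50566570-50566769, minus strand: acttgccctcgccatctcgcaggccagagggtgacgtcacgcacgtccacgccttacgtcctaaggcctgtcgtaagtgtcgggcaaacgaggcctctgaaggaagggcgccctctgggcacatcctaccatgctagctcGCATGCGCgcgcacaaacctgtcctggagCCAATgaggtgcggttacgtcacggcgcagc
The stretch ends 37 bases before the RefSeq start for Cox6b1 and 23 bases before it for Cox6a1, and distances are from the RefSeq start. In it the widely expressed Cox6b1 held 2 CCAAT matches, at 177 and 74 bases. Its isoform gene Cox6b2 held a single CCAAT match, at 9 bases. Cox6a1 held a pair of overlapping NRF1 matches, at 162 and 160 bases, and Cycs held 1 at 60 bases.

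All 89 members had passed the authors' filter of a mean above 100 counts in at least 1 group, and 87 passed it in all 4 groups. Cox6a2 passed only through the MPP4 groups, and Cox4i2 in 3 of the 4 groups. Together the members took 1.71% to 1.97% of the counts of a library. Averaged over the 16 libraries, per kilobase of the median coding transcript, the level ran from 5.67 CPM for Cox4i2 to 1096 CPM for Ndufa4, with a median of 196 CPM. Ndufa4, first described with complex I and now counted with complex IV, was the highest of complex IV. The highest members of the other complexes were Atp5b, a catalytic subunit of complex V, at 725 CPM per kilobase, Uqcrh, the hinge protein of complex III, at 590, Ndufa6, an accessory subunit of complex I, at 416, and Sdhb, the iron-sulphur subunit of complex II, at 337. The assembly factors were lower, between 13 CPM per kilobase for Ndufaf5 and 55.3 for Ndufaf2. Cycs stood at 34.0 CPM per kilobase, on a long transcript. The members varied little between mice. Their median coefficient of variation of CPM within a group was 6.21% in WT MPP3, 5.51% in KO MPP3, 6.34% in WT MPP4 and 7.59% in KO MPP4. Over all genes tested it was 11.7% to 13.7%, a comparison that was not matched for expression level.

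The first comparison asks whether the machinery differs between the myeloid-biased and the lymphoid-primed population. In WT mice 2 members were higher in MPP3 than in MPP4, Cox6b2 and Ndufb2, and 2 were lower, Cox6a2 and Atp5sl. In KO mice 2 were higher, Cox6b2 and Uqcrb, and 4 were lower, Cox6a2, Sdhb, Atp5sl and Cox7a2l. A gene was called at a false discovery rate (FDR) under 0.1 over all genes tested, by edgeR's quasi-likelihood test. For all genes tested, 6.8% were called higher and 8.33% lower in WT, and 8.71% higher and 9.18% lower in KO, so that a smaller share of the members was called than of all genes in each direction. Cox6a2 is in the table only through the MPP4 groups, where it is high, so its population difference is given as a description with no test; leaving it out, 1 member was lower in WT and 3 in KO. The WT count was 7 without WT MPP3 replicate 2, 8 without WT MPP4 replicate 1 and 2 without WT MPP4 replicate 3. Of the 89 members, 83 lay within 0.25 log2 units of no change in each genotype. The median log2 fold change of the members, MPP3 over MPP4, was 0.05 in WT, with 68 of 89 above 0, and 0.02 in KO, with 54 of 89 above 0. In bulk RNA a difference of this kind cannot separate fewer cells of a type from less RNA per cell.

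**Figure D1:**
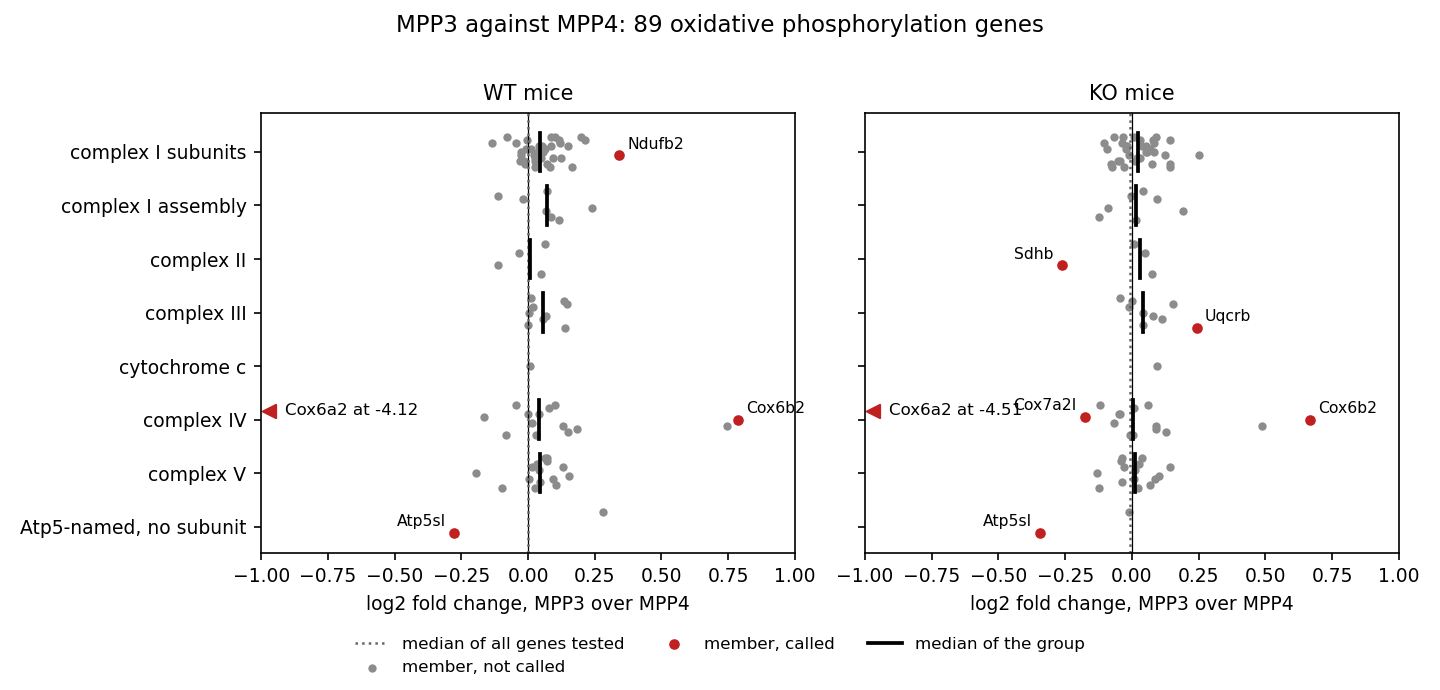
Log2 fold change of each of the 89 members, MPP3 over MPP4, by complex, in WT (left) and KO mice (right), from 4 libraries per group. Red points had an FDR under 0.1 and are named, grey points did not, black bars are group medians for groups of 3 or more, and the dotted line is the median of all genes tested; Cox6a2 lies beyond the axis at -4.12 and -4.51, while nearly all other members sit close to 0.

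The same-numbered libraries of a genotype come from the same mouse and deviated together, so the population difference was also fitted with the mouse as a block. It then called 12 members in WT and 8 in KO, or 11 and 7 without Cox6a2, which is 1 of the lower members in each. In WT 8 were higher in MPP3, against 11.3% of all genes, and 4 were lower, against 13.4%. In KO 4 were higher, against 13.8%, and 4 were lower, against 14.5%. The members added in WT were Cox4i2, Ndufa1, Ndufb6, Ndufc2, Uqcrc2 and Cox6b1 on the higher side and Cox7a2l and Atp5g2 on the lower side, and in KO they were Ndufb2 and Uqcrc2. Ndufa1, Ndufb6, Ndufc2 and Uqcrc2 are named here after their values were seen. With the block and 1 mouse left out at a time, an alternative chosen after seeing the data, the WT count ran from 5 (without WT mouse 3) and 6 (without WT mouse 4) to 13, and the KO count from 5 (without KO mouse 2) to 10.

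Complex IV held both extremes. Cox6a2 encodes the isoform of subunit 6A known from heart and skeletal muscle, and lies at chr7:128205435-128206387 on the minus strand. In MPP3 it gave 1.96, 1.14, 0.939 and 0.658 CPM in WT and 2.12, 1.23, 0.822 and 2.51 CPM in KO. In MPP4 it gave 16.6, 21.6, 20.5 and 22.6 CPM in WT and 43.1, 53.2, 28.2 and 29.1 CPM in KO. Every MPP4 library thus lay above every MPP3 library, and every MPP4 library labelled KO above every WT one. The log2 fold change, MPP3 over MPP4, was -4.12 (SE 0.37, 17.4-fold lower in MPP3) in WT and -4.51 (SE 0.36, 22.8-fold lower) in KO. The gene overlaps Itgad on the opposite strand. Itgad held 7 to 95 counts, while Cox6a2 held 639 to 1987 counts in MPP4 libraries and 26 to 100 in MPP3 libraries.

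The ubiquitous isoform Cox6a1 was not called in any comparison, with means of 307 ± 23.8 CPM in WT MPP3, 322 ± 24.6 in KO MPP3, 304 ± 15.4 in WT MPP4 and 337 ± 32.4 in KO MPP4 (SD, n = 4). Per length, Cox6a2 made up 0.316% ± 0.129 of the Cox6a transcripts in WT MPP3 and 5.33% ± 0.785 in WT MPP4. In the libraries labelled KO it made up 0.438% ± 0.207 and 8.65% ± 2.09. The minor isoform therefore remained minor in MPP4.

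Cox6b2, the isoform of subunit 6B known from testis, moved the other way. It gave 37.2, 36.1, 36.5 and 37.2 CPM in WT MPP3 and 23.4, 17.7, 22.4 and 21.7 CPM in WT MPP4. The KO libraries gave 39.8, 38.3, 42.0 and 43.6 CPM in MPP3 and 25.3, 28, 24.5 and 25.3 CPM in MPP4. The MPP3 and MPP4 libraries did not overlap in either genotype. The log2 fold change was 0.79 (SE 0.10, FDR = 2.90e-05) in WT and 0.67 (SE 0.10, FDR = 0.000119) in KO. Its widely expressed partner Cox6b1 was at 260 ± 17.9 CPM in WT MPP3 and 235 ± 11.0 in WT MPP4, a log2 fold change of 0.15 that was not called (FDR = 0.118) but passed with the mouse as a block (FDR = 0.0751). Cox6b2 supplied 13.7% ± 0.758 of the Cox6b transcripts per length in WT MPP3 and 9.21% ± 1.01 in WT MPP4.

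**Figure D2:**
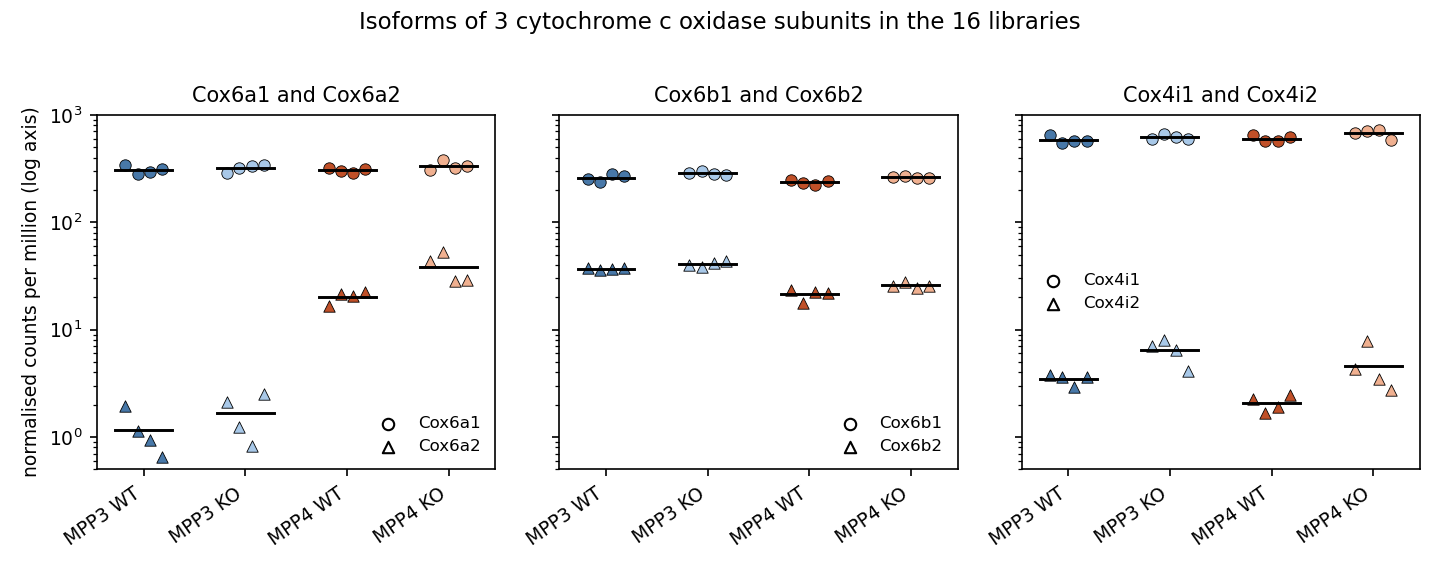
Normalised CPM on a log axis of the paired isoforms Cox6a1 and Cox6a2, Cox6b1 and Cox6b2, and Cox4i1 and Cox4i2 in each of the 16 libraries, with a bar at the mean of each group of 4. Cox6a2 separates MPP4 from MPP3 libraries and Cox6b2 is higher in MPP3, while the major isoforms lie between 220 and 718 CPM in every library.

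Cox4i2, the isoform of subunit 4 known for its induction by low oxygen, was the lowest member over the 16 libraries, although Cox6a2 was lower in MPP3. It gave 3.76, 3.63, 2.94 and 3.59 CPM in WT MPP3 and 2.24, 1.66, 1.90 and 2.47 CPM in WT MPP4. These libraries did not overlap, yet the log2 fold change of 0.75 (SE 0.31) was not called (FDR = 0.150) and passed with the mouse as a block (FDR = 0.0485) or with sex (FDR = 0.0985) or age (FDR = 0.0730) as a term. It supplied 0.616% ± 0.0692 of the Cox4 transcripts per length in WT MPP3 and 0.353% ± 0.0447 in WT MPP4, the rest coming from Cox4i1. Cox4i1 stood at 582 ± 45.3 CPM in WT MPP3 and 601 ± 38.1 in WT MPP4. Cox7a2l, which encodes a supercomplex assembly factor related to the Cox7a subunits, was lower in MPP3 in KO mice (328, 345, 345 and 324 CPM in MPP3 against 367, 403, 393 and 356 in MPP4; log2 fold change -0.18, SE 0.06, FDR = 0.0817). In WT its log2 fold change was -0.16 with FDR = 0.123, or 0.0417 with the mouse as a block. The Cox7a2l call in KO was lost without any of 6 of the 8 KO libraries, with FDR between 0.109 and 0.2105, and in the fit of all genes with a count (FDR = 0.223). The other Cox7 and Cox8 members named by rule, Cox7a2, Cox7b and Cox8a, were not called in any comparison, with group means of 124 to 151, 135 to 162 and 312 to 330 CPM.

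Without a block, 1 of 36 complex I subunits was called in WT and 0 in KO. In KO edgeR gave an unadjusted p under 0.05 for 1, the same gene, against 25.4% of all genes tested. Ndufb2, an accessory subunit of the membrane arm, gave 46.2, 38.6, 48.2 and 42.5 CPM in WT MPP3 and 38.9, 32.8, 32.7 and 34.0 CPM in WT MPP4. These ranges touch, since the lowest MPP3 library lay just under the highest MPP4 library. The log2 fold change was 0.34 (SE 0.10, FDR = 0.0384) in WT. Without WT MPP3 replicate 3 or WT MPP4 replicate 3 the call was lost (FDR = 0.117 and 0.110). The log2 fold change was 0.25 in KO, where it passed with the mouse as a block (FDR = 0.0574) or without KO MPP3 replicate 4 (FDR = 0.0907). Ndufb2 overlaps Braf on the opposite strand, whose log2 fold changes were 0.39 (FDR = 0.215, or 0.0414 with the mouse as a block) in WT and 0.63 (FDR = 0.0289) in KO, and how far those reads enter the Ndufb2 count was not tested. Of the accessory subunits added with the block in WT, Ndufa1 had a log2 fold change of 0.20 (FDR = 0.0443 with the block), Ndufb6 of 0.21 (FDR = 0.0443) and Ndufc2 of 0.15 (FDR = 0.0562). The 29 accessory subunits had a median log2 fold change of 0.06 in WT and the 7 core subunits, which carry the flavin and iron-sulphur clusters and the quinone site, of -0.01. The 7 assembly factors ran from -0.11 to 0.24 in WT and from -0.12 to 0.19 in KO, with none called.

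Of the 4 complex II genes, 1 was called. Sdhb gave 341, 386, 364 and 360 CPM in KO MPP3 and 426, 476, 402 and 438 CPM in KO MPP4, with no overlap, a log2 fold change of -0.26 (SE 0.06, FDR = 0.00979). In WT it gave 361, 336, 346 and 386 CPM in MPP3 and 382, 382, 369 and 410 CPM in MPP4, a log2 fold change of -0.11 that was not called (FDR = 0.346). The difference between those 2 values, -0.15 (SE 0.09), was tested as the interaction without a block and was not called (FDR = 1.00). Sdha, the flavoprotein, stood at 533 to 565 CPM in the group means, Sdhc at 201 to 214 and Sdhd, its partner membrane anchor, at 304 to 326, and none of the 3 was called in any comparison.

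In complex III Uqcrb, a small subunit near the quinone site, was called in KO without a block. It gave 138, 123, 122 and 121 CPM in KO MPP3 and 118, 110, 98.8 and 99.8 CPM in KO MPP4 (log2 fold change 0.24, SE 0.07, FDR = 0.0328), so that the libraries did not overlap. Without KO MPP3 replicate 1, the highest library, the call was lost (log2 fold change 0.20, FDR = 0.104). The WT log2 fold change was 0.14 (FDR = 0.285). Uqcrc2, a core protein of the matrix side, had means of 243 ± 23.9 CPM in WT MPP3 and 219 ± 7.80 in WT MPP4, and of 254 ± 15.6 and 229 ± 5.43 CPM in KO. Its log2 fold change was 0.15 in each genotype, with FDR = 0.211 in WT and 0.165 in KO, or 0.0898 and 0.0645 with the block, and its KO libraries did not overlap. Cyc1, the cytochrome c1 subunit, had group means of 251 to 271 CPM and Cycs of 102 to 114 CPM, and neither was called in any comparison.

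Complex V held no called member in the fit without a block. Its c ring is encoded by Atp5g1, Atp5g2 and Atp5g3, whose products share the same mature peptide. Per length, Atp5g2 supplied 23.0% ± 1.22 of their transcripts in WT MPP3 and 26.5% ± 1.05 in WT MPP4. It supplied 24.4% ± 0.340 and 25.8% ± 1.46 in KO. Atp5g3 supplied 59.1% to 61.5% in the group means and Atp5g1 14.4% to 16%. These shares rest on the median lengths of annotated coding transcripts, 2675.5 bases for Atp5g1, 586 for Atp5g2 and 718.5 for Atp5g3. Without division by length, Atp5g1 averaged 249 CPM over the 16 libraries, Atp5g2 89.4 and Atp5g3 263. The low share of Atp5g1 therefore depends on the length used, and which transcripts were present was not tested. Atp5g2 gave 83.8, 77.2, 74.4 and 88.2 CPM in WT MPP3 and 92.9, 87.6, 89 and 101 CPM in WT MPP4, and its log2 fold change of -0.19 was called with the mouse as a block (FDR = 0.0359) but not without (FDR = 0.106). Atp5sl, also annotated as Dmac2 and linked to complex I assembly rather than to the synthase, was lower in MPP3 in both genotypes. It gave 55.2, 52.3, 62.9 and 61.2 CPM in WT MPP3 against 62.5, 70.0, 82.0 and 66.0 in WT MPP4, with 1 MPP3 library just above the lowest MPP4 library (log2 fold change -0.28, SE 0.09, FDR = 0.0654). In KO it gave 49.3, 50.4, 54.1 and 49.6 CPM in MPP3 against 58.0, 68.0, 66.7 and 65.5 in MPP4, with no overlap (log2 fold change -0.34, SE 0.09, FDR = 0.0184). The WT call was lost without MPP3 replicate 1 or 2 or MPP4 replicate 2 or 3 (FDR between 0.126 and 0.238).

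The second comparison, KO against WT, asks how the machinery responds to the Ebf1 targeting. No member was called in either population by edgeR's quasi-likelihood test, where 0.0676% of all genes were called in MPP3 and 0.0169% in MPP4. At an unadjusted p under 0.05, 2 members were higher in the libraries labelled KO in MPP3, against 4.29% of all genes, and 17 in MPP4, against 5.68%. No member was lower at that p, against 6.2% of all genes in MPP3 and 7.16% in MPP4. DESeq2 called no member in MPP3, against 1.82% of the genes to which it gave an adjusted p, and 1 in MPP4, Cox6a2 (log2 fold change 0.93, adjusted p = 0.0869), against 2.92%. The 2 contrasts share no libraries but share mice.

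The individual differences were small and mostly in 1 direction. The median log2 fold change of the members, KO over WT, was 0.08 in MPP3, with 78 of 89 above 0, and 0.11 in MPP4, with 80 of 89 above 0. Over all genes tested the medians were -0.01 in both populations, with 48.8% and 47.3% above 0. In each population 86 of the 89 members lay within 0.25 log2 units of no change. The 5 myeloid progenitor markers (Mpo, Elane, Ctsg, Prtn3 and Csf1r) had median log2 fold changes of 0.75 in MPP3 and 0.40 in MPP4, with none called. Their summed level was 5587 to 9338 CPM in WT MPP3 and 6664 to 15536 CPM in KO MPP3, and 2069 to 2738 CPM in WT MPP4 and 2442 to 3709 CPM in KO MPP4, and their part in the difference was not tested. Kit, a receptor used in the sort, was called lower in the MPP4 libraries labelled KO (408 ± 23.1 CPM against 547 ± 36, log2 fold change -0.42, SE 0.07, FDR = 0.0560), and its part in the MPP4 difference was not tested. The other 4 tested markers of the sort were not called there, with log2 fold changes of 0.44 for Ly6a, 0.30 for Cd48, -0.28 for Flt3 and -0.11 for Cd34. In MPP3, 4 members were higher in every library labelled KO than in any WT library, against 2.17% of all genes: Cox4i2, Cox6b2, Atp5o and Ndufa2. In MPP4, 9 were, against 2.83%: Cox4i2, Cox6a2, Cox6b2, Cox5a, Cox6b1, Atp5j2, Ndufa11, Ndufb8 and Ndufs8. No member lay below every WT library, against 2.41% of all genes in MPP3 and 4.44% in MPP4. Apart from the members named by rule, these were listed after their values were seen.

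**Figure D3:**
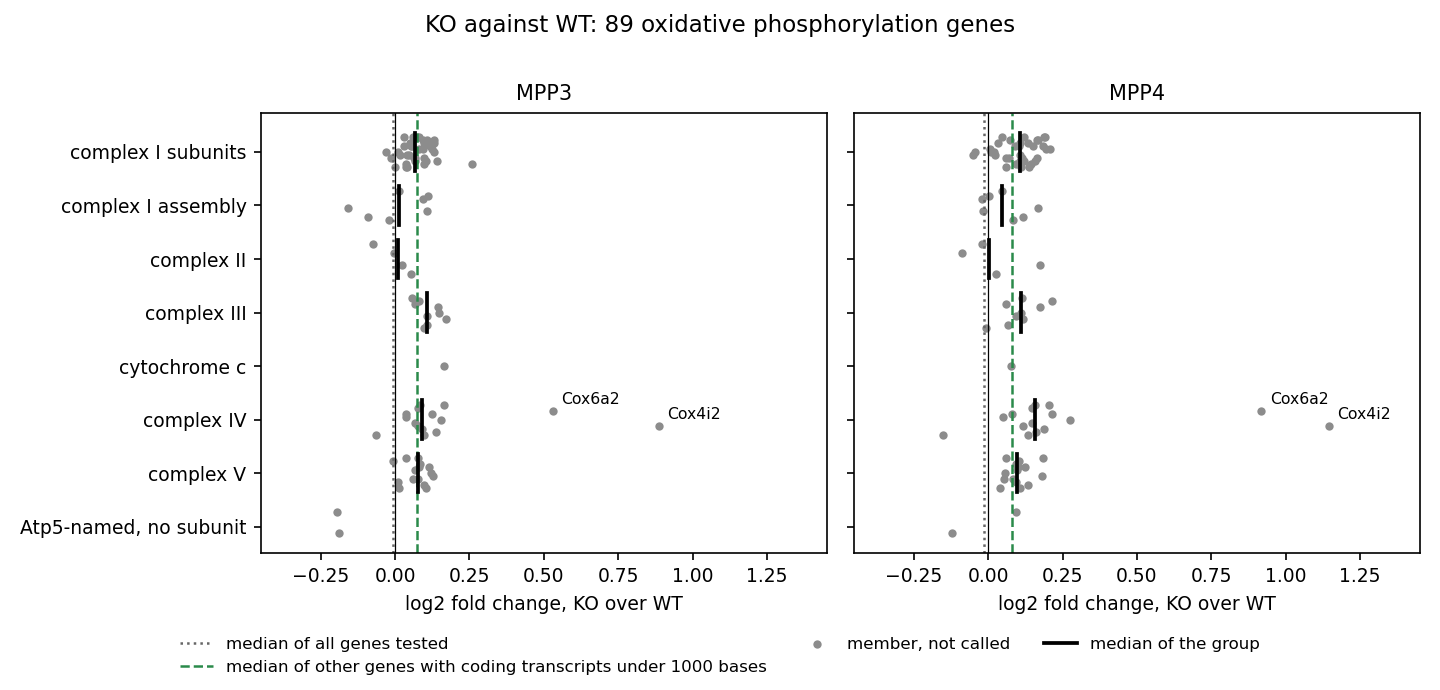
Log2 fold change of each of the 89 members, KO over WT, by complex, in MPP3 (left) and MPP4 (right), from 4 libraries per group. Black bars are group medians for groups of 3 or more, the dotted line is the median of all genes tested and the green dashed line that of other genes with coding transcripts under 1000 bases; no member passed an FDR under 0.1, and most lie to the right of 0.

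By complex, the median KO over WT log2 fold change in MPP3 was 0.07 for complex I, 0.01 for complex II, 0.11 for complex III, 0.09 for complex IV and 0.08 for complex V. In MPP4 the medians were 0.11 for complex I, 0.00 for complex II, 0.11 for complex III, 0.16 for complex IV and 0.10 for complex V. All 15 complex V members were above 0 in MPP4 and all 9 complex III members in MPP3. Complex II was split, with 2 of 4 above 0 in each population. Summed over complex I, the level was 5290 ± 168 CPM in WT MPP3 and 5542 ± 152 in KO MPP3, and 5144 ± 242 in WT MPP4 and 5512 ± 251 in KO MPP4 (SD, n = 4). Complex II summed to 1446 ± 55.9 and 1434 ± 42.4 CPM in WT and KO MPP3, and to 1445 ± 42.2 and 1480 ± 58.2 CPM in MPP4. The difference between genotypes was larger than either SD for complexes I and III in both populations and for complexes IV and V in MPP4. It was below the SD of the WT libraries for complexes IV and V in MPP3 and below either SD for complex II in both populations. The libraries of the genotypes overlapped in each case.

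Some other gene groups had medians of the same sign and some did not. The 847 other genes with coding transcripts under 1000 bases had median log2 fold changes of 0.07 in MPP3 and 0.08 in MPP4, cytosolic ribosomal protein genes 0.13 and 0.17, mitochondrial ribosomal protein genes 0.06 and 0.08, and 31 other assembly factors 0.06 and 0.04. The 17 genes of the citric acid cycle and pyruvate dehydrogenase had medians of 0.05 and -0.00031, and 13 regulators of mitochondrial biogenesis of -0.05 and -0.12. The 53 members with transcripts that short had medians of 0.09 and 0.12, and the 36 longer members 0.05 and 0.07. The part of transcript length or RNA quality in the difference was not tested. KO mice were also younger on average, and with age as a term the members' medians were 0.05 in MPP3 and 0.08 in MPP4.

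Averaged over its MPP3 and MPP4 libraries, each mouse can be placed by the median log2 deviation of the 89 members from their own means. The WT mice stood at 0.01, -0.08, -0.08 and -0.02 and the KO mice at 0.02, 0.10, 0.04 and 0.01. The groups overlap, since WT mouse 1 lay just above KO mouse 4. Among the 4 mice of 11 weeks, the WT mice, a female and a male, were at -0.08 and -0.02. The KO mice of that age, both female, were at 0.04 and 0.01, so these mice are not balanced for sex. The youngest mouse, KO mouse 2 at 9 weeks, was the highest in both populations. WT MPP4 replicate 3 was the lowest library, at -0.15.

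**Figure D4:**
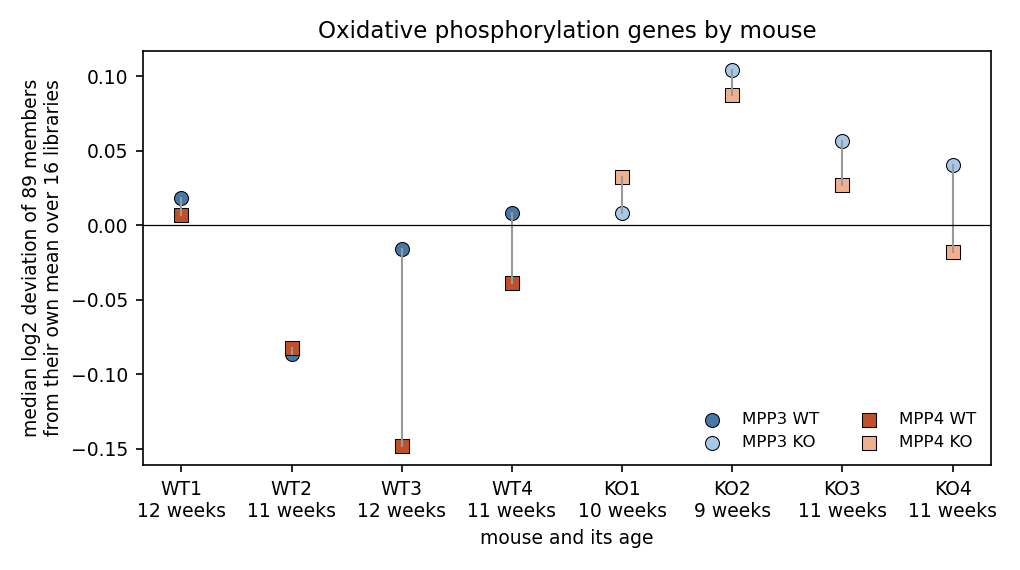
Median log2 deviation of the 89 members from their own means over 16 libraries, for the MPP3 (circle) and MPP4 (square) library of each of the 8 mice, with the mouse's age on the x axis. The 4 mice labelled KO lie mostly above the 4 labelled WT, with KO mouse 2 highest and WT MPP4 replicate 3 lowest, and the ranges of the genotypes overlap.

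Cox4i2 had the largest genotype difference among the members and gave 7.01, 8.03, 6.53 and 4.15 CPM in the MPP3 and 4.30, 7.82, 3.45 and 2.74 CPM in the MPP4 libraries labelled KO, in each population above every WT library. The log2 fold change, KO over WT, was 0.89 (SE 0.30, FDR = 0.305) in MPP3 and 1.14 (SE 0.31, FDR = 0.179) in MPP4, so neither was called. With age as a term the FDR was 0.801 and 0.650. For Cox6a2 in MPP4 the log2 fold change was 0.92 (SE 0.31, FDR = 0.232). The KO libraries of the 2 males, aged 10 and 9 weeks, were the highest, at 43.1 and 53.2 CPM. Those of the females, both aged 11 weeks, were at 28.2 and 29.1 CPM, so age and sex cannot be told apart among the KO mice. The 4 lymphoid progenitor markers summed to 1451 to 1873 CPM in the MPP4 libraries labelled KO against 1166 to 1433 CPM in WT, nearly all of it Dntt (means of 1641 and 1258 CPM). Mean Il7r was 25.9 CPM in KO and 17.4 in WT, while Ccr9 was 9.76 against 14.0 and Rag1 3.17 against 3.77. None of the 4 was called, and their part in the Cox6a2 value was not tested. Cox5a, a matrix-facing subunit of complex IV, gave 222, 258, 202 and 217 CPM in KO MPP4 and 199, 197, 182 and 197 CPM in WT MPP4 (log2 fold change 0.21, SE 0.07, FDR = 0.238). In MPP3 the smallest p after Cox4i2 belonged to Cox6b1, at 286 ± 9.40 CPM in KO and 260 ± 17.9 in WT (log2 fold change 0.14, FDR = 0.411), and to Atp5sl, at 50.8 ± 2.20 CPM in KO and 57.9 ± 5.0 in WT (log2 fold change -0.19, FDR = 0.503).

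Whether the genotype difference itself differed between populations was tested as an interaction. No member was called, against 0% of all genes tested, no member had an unadjusted p under 0.05, against 2.28% of all genes, and DESeq2 called none. The median interaction of the members was -0.04, KO over WT in MPP3 minus that in MPP4. The smallest unadjusted p belonged to Ndufaf7 (log2 difference -0.21, SE 0.11), a methyltransferase acting in complex I assembly, Ndufaf5 (-0.33, SE 0.19) and Sdhb given above. All had FDR = 1.00 by edgeR's test. These values come from fits without a block, although the libraries of a mouse deviated together. With the mouse as a block and 1 mouse left out at a time, no member was called for the interaction in any of 8 fits. The log2 differences then ran from -0.25 to -0.15 for Ndufaf7, -0.46 to -0.25 for Ndufaf5 and -0.19 to -0.13 for Sdhb.

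The mitochondrial genome encodes 13 further subunits, of which 9 passed the filter. In WT, mt-Nd1 (log2 fold change 0.43, SE 0.12, FDR = 0.0223) and mt-Cytb (0.36, SE 0.10, FDR = 0.0350) were higher in MPP3 than in MPP4. In KO, mt-Nd5 was lower in MPP3 (-0.36, SE 0.11, FDR = 0.0363). Of all genes, 6.8% were called higher in WT and 9.18% lower in KO. The mt-Cytb call was lost without WT MPP3 replicate 2 or WT MPP4 replicate 4 and the mt-Nd5 call without KO MPP3 replicate 1 or KO MPP4 replicate 3, with FDR between 0.102 and 0.121. With the mouse as a block 5 of the 9 were called in WT, all higher, against 11.3% of all genes, and 3 in KO, all lower, against 14.5%. All 9 were above 0 in WT and 1 of 9 in KO. mt-Nd1, a core subunit of complex I, gave 535, 679, 672 and 627 CPM in WT MPP3 and 412, 452, 547 and 449 CPM in WT MPP4, and 504, 517, 515 and 505 CPM in KO MPP3 and 674, 540, 628 and 431 CPM in KO MPP4. Its WT libraries overlapped by 1 library, and the KO MPP4 libraries spread on both sides of those of KO MPP3.

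KO over WT, the 9 transcripts spanned -0.43 to -0.09 in MPP3 cells and 0.04 to 0.70 in MPP4 cells, with none called by edgeR in either. DESeq2 called mt-Nd4 lower in MPP3 (-0.40, adjusted p = 0.0375) and mt-Nd6 higher in MPP4 (0.46, adjusted p = 0.0895). The medians of the nuclear members were 0.08 and 0.11, above 0 in both. The interaction, fitted in edgeR without a block, was negative for all 9, between -0.80 and -0.44. Its unadjusted p was under 0.05 for 7 of them, against 2.28% of all genes, and none was called (FDR = 1.00). The 9 transcripts come from 1 polycistronic genome and are not independent of each other. mt-Co1 was low in both libraries of WT mouse 4, at 346 CPM in MPP3 and 385 CPM in MPP4, where the other WT libraries held 580 to 1174 CPM.

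**Figure D5:**
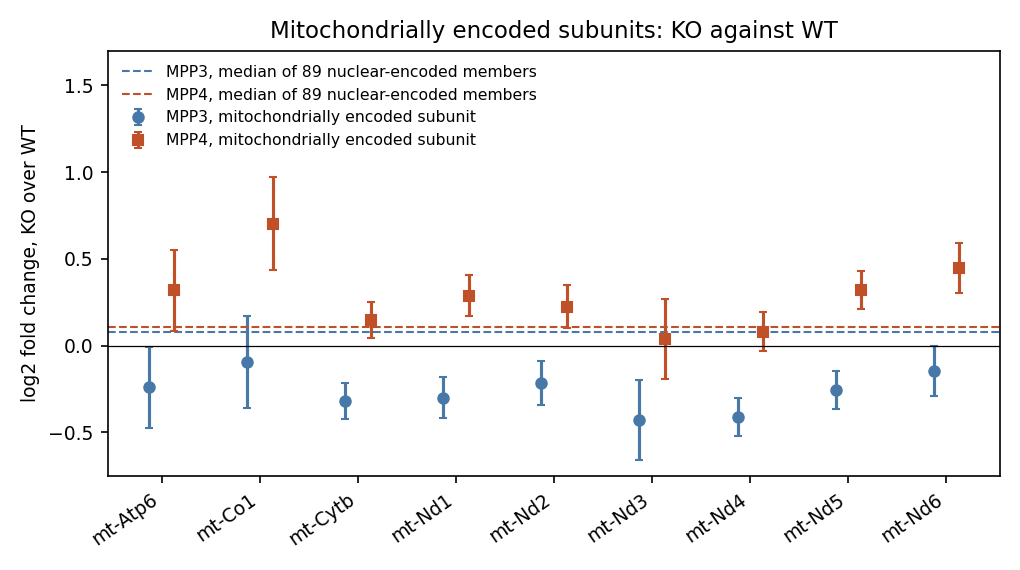
Log2 fold change with standard error, KO over WT, of the 9 tested mitochondrially encoded subunits in MPP3 (circles) and MPP4 (squares), from 4 libraries per group, with dashed lines at the medians of the 89 nuclear-encoded members. All 9 lie below 0 in MPP3 and above 0 in MPP4, and none was called by edgeR.

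Other genes of the pathway were read against the same shares of all genes called between populations, 6.8% higher and 8.33% lower in WT and 8.71% and 9.18% in KO. Of 31 other assembly factors tested, 1 was called in WT, Sdhaf2, which attaches the flavin to Sdha (log2 fold change -0.23, FDR = 0.0942), and none in KO. Of 17 genes of the citric acid cycle and pyruvate dehydrogenase, none was called in WT and 2 were higher in MPP3 in KO: Cs, citrate synthase (0.28, FDR = 0.0127), and Sucla2, a succinyl-CoA ligase subunit (0.23, FDR = 0.0275). Of 77 mitochondrial ribosomal protein genes, Mrpl16 (0.35, FDR = 0.00677) and Mrpl20 (0.19, FDR = 0.0813) were higher in MPP3 in WT. In KO Mrpl16 (0.28, FDR = 0.0250) was higher, and Mrps6 (-0.36, FDR = 0.0150) and Mrps10 (-0.21, FDR = 0.0974) were lower. Leaving out 1 library ended the Sdhaf2 call in 11 of 16 cases (FDR up to 0.2325), the Mrpl20 call in 6 (up to 0.1985) and the Mrps10 call in 12 (up to 0.2124). Of 13 regulators of mitochondrial biogenesis none was called in any comparison by edgeR with neither a block nor a covariate. At an unadjusted p under 0.05 there were 1 in WT and 2 in KO between populations, against 22.1% and 25.4% of all genes. Between genotypes there were 1 in MPP3 and 4 in MPP4, against 10.5% and 12.8%, and for the interaction 1, against 2.28%. Gabpa, a subunit of an ETS factor, and Tfam, the mitochondrial transcription factor A, were called between populations in KO with the mouse as a block (0.29, FDR = 0.0402, and -0.20, FDR = 0.0483), with sex as a term (FDR = 0.0833 and 0.0941) and by DESeq2 (adjusted p = 0.0870 and 0.0983), and Pprc1 was called with the block in WT (-0.27, FDR = 0.0334) and KO (-0.20, FDR = 0.0990). The median log2 fold change of the 13 regulators, MPP3 over MPP4, was -0.14 in WT and -0.04 in KO. With the mouse as a block, which called 11.3% of all genes higher and 13.4% lower in WT and 13.8% and 14.5% in KO, these lists and the mitochondrial transcripts together held 11 calls in WT and 14 in KO. edgeR called no gene of these lists between genotypes. Besides the mitochondrial transcripts given above, DESeq2 called Mrpl20 (0.28, adjusted p = 0.0186) and Mrps18b (0.27, adjusted p = 0.0994) higher in the MPP4 libraries labelled KO. With sex as a term edgeR called Mrpl20 (0.27, FDR = 0.0822) and Yy1 (0.72, FDR = 0.0935) there.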

How the data were processed

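RNA from sorted MPP3 and MPP4 cells was made into libraries with a low-input kit and sequenced as paired-end reads. Per the labels and the study's methods, the authors used STAR (2.7.3a) for alignment to mm10 and featureCounts (2.0.0) for gene counts. Use of strand and the annotation release are not given in the sources used here; 39 members overlap another annotated gene, 31 of them on the opposite strand, and their counts are uncertain. The authors deposited raw counts for each population, and normalised counts, a signal equal to the count over a DESeq2 (1.28.1) size factor per library, for genes averaging over 100 counts in at least 1 group. Members were found in the normalised table. For all 89, its values equalled raw counts over 1 size factor per library, which also matched Atp5sl, absent from the annotation's symbols, to its identifier. Another 11 genes whose symbols fit the rule in a GENCODE annotation were not members, and 3 of them (Atp5mpl, Cox6c2 and Ndufaf8) passed the count filter.

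Raw counts of all 16 libraries were fitted together in edgeR (4.0.16, R 4.3.3) with the same filter, TMM normalisation, 1 mean per group, glmQLFit with legacy deviances and glmQLFTest. P-values were adjusted by Benjamini-Hochberg over 11831 genes, and an FDR under 0.1 was a call. SEs are the absolute log2 fold change over the root of F. CPM are counts scaled to the TMM-adjusted library size, so 1 count was 0.0206 to 0.0394 CPM. Fits were tested on simulated data. The precision covers counting and the spread between mice, as reads had no molecular identifiers. Same-numbered libraries of a genotype, which the labels give the same sex and age, correlated in their deviations from group means at r of 0.269 to 0.548 in all 8 pairs and were taken as 1 mouse. Numbers shared across genotypes mark different mice (r of -0.464 to 0.127). Alternatives were DESeq2 (1.42.0) size factors or its Wald test, no count filter, adjusted deviances, sex or age as a term, blocks, only the groups compared, and each library or WT mouse 1 left out.

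Members and lists were chosen with earlier results of these data known. Named by rule were Cyc1, Cycs and the Sdh genes, every called member, the 3 members of smallest p in each genotype contrast and the interaction, the highest member per length of each complex, paralogous isoforms, and called genes of the pathway lists (up to 5 each). Cox7a1 and Ndufa4l2 of that rule were below the filter. Coordinates are GRCm38 from GENCODE.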

Additional observations from a re-analysis of the deposited data

Results flagged for a closer look

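Of 200 groups of 4 libraries examined for a library far from the others, 13 held one, and chance alone marks about 1 in 20 groups. In MPP4, WT replicate 3 was low for Atp5g1 at 209.6 CPM (others 235 to 239), Cox5a at 182.2 (196.7 to 199.2) and Ndufaf2 at 29.77 (33.64 to 33.89), and WT replicate 1 was high for Uqcrh at 298.4 (253.5 to 259.3). KO MPP4 replicate 2 was high for Atp5g2 at 106.2 CPM (91.5 to 93.72), and KO MPP4 replicate 4 was low for Mrps10 at 107.8 (122 to 124.9). In MPP3, WT replicate 2 was low for Cox7b at 130 CPM (148.1 to 150). KO MPP3 replicate 1 was low for Cox8a at 287.3 CPM (327.2 to 334.2) and high for Ndufaf2 at 43.46 (34.49 to 35.09) and Uqcrb at 137.7 (121 to 123.2). KO MPP3 replicate 2 was high for Cox7a2 at 161.9 CPM (145.8 to 148.3) and for summed complex V at 5963 (5663 to 5705), and KO MPP3 replicate 4 was high for Sdha at 571.9 (520.6 to 529.3).

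Of 3 genes above the filter whose symbols fit the members' rule only in GENCODE, Cox6c2 was higher in MPP3 than in MPP4 in WT (log2 fold change 0.38, SE 0.13, FDR = 0.0652) and was not called in KO (0.11, FDR = 0.680), and Atp5mpl and Ndufaf8 were not called in any comparison. Genes below the filter of the normalised table, and so outside all comparisons, still held reads. Cox7a1, the muscle isoform of subunit 7A, had 13 to 60 counts, Ndufb4c 52 to 137 and Ndufs6b 36 to 79. Reads of the last 2, which resemble Ndufb4 and Ndufs6, cannot be told apart from those of the members by these counts.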

How the results depend on the processing

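Of 39 single-gene values run under the alternatives, none changed sign, and 1101 of 1235 alternative values kept their side of the threshold. Cox6b2 remained called between populations in every alternative run. The log2 fold changes of Cox6a2 and Cox6b2 over the 16 fits without 1 library ran from -4.49 to -3.92 and 0.71 to 0.83 in WT and -4.78 to -4.28 and 0.64 to 0.71 in KO. The counts that follow include Cox6a2. The 4 members called in WT became 8 with sex as a term, 12 with the mouse as a replicate block and 7 without WT mouse 1, and ranged from 2 to 13 with a library or mouse left out. The 6 called in KO became 8 with that replicate block, and ranged from 4 to 10. DESeq2 called 1 member between genotypes in MPP4; no other alternative called any, the replicate number as a replicate block included (WT and KO mice of 1 number are different animals). Pathway list genes called in WT, 5, were 3 without the count filter, 11 with the block, and 2 to 11 with a library or mouse left out (9 under the block without mouse WT1); those in KO, 6, were 14 with the block, and 4 to 16 with a library or mouse left out (15 under the block without mouse WT1, WT3 or KO4). Between genotypes they were 1 (MPP3) and 3 (MPP4) by DESeq2, 2 in MPP4 with sex as a term, 0 to 1 in MPP4 without 1 library, and 0 to 1 for the interaction with the block and 1 mouse left out. Median log2 fold changes of the members moved by less than the spread of libraries (SD 0.05), which is as large as the population medians. Without 1 library they ran from 0.0208 (without WT MPP4 replicate 3) to 0.070 in WT, from 0.00664 (without KO MPP4 replicate 4) to 0.0361 (without KO MPP4 replicate 2) in KO and from -0.0595 (without WT MPP3 replicate 2) to -0.00891 (without WT MPP4 replicate 3) for the interaction; between genotypes they ran from 0.0585 to 0.0891 in MPP3 and 0.0796 to 0.129 in MPP4. Sdhaf2, Mrpl20, Mrps10 and Cox7a2l lost their calls without the count filter and with only the groups compared. Causes were not tested. At 0.0206 to 0.0394 CPM per count, Cox4i2 and Cox6a2 in MPP3 rest on few reads.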
